A study of Mus musculus with 8 samples.

Results

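Immediate early genes are transcribed within minutes of a signal reaching the cell, without new protein synthesis, and their short-lived transcripts disappear again soon after. MAP kinases switch them on through serum response factor and CREB at their promoters, and in liver they are known to rise after feeding, injury, cytokines, partial hepatectomy and the handling of animals or tissue. Pim kinases are serine/threonine kinases that are active as soon as they are made, so that their amount is set largely by transcription, classically through JAK-STAT signalling. The genes described here are 10 taken by name: the transcription factors Fos, Jun, Junb, Egr1 and Atf3, the early nuclear protein Ier2, the feedback regulators Dusp1 and Zfp36, and the kinases Pim1 and Pim3. All 10 were found by symbol among the 55487 genes of the count tables, and all 10 had enough counts to be among the 13400 genes tested.

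The livers came from adult male mice, 4 control mice carrying the floxed Mc1r allele (Mc1r fl/fl) and 4 Mc1r LKO mice carrying the same floxed allele together with the Alb Cre transgene. Mc1r encodes the melanocortin 1 receptor. The albumin promoter drives Cre in hepatocytes, so that the other cells of the liver keep the receptor, and all mice of both genotypes were fed a Western diet for 12 weeks and were killed with CO2 after a short fast. The question asked of these genes was whether their levels, which follow acute stress and handling, differed between the genotypes or between individual mice.

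The counts assigned to genes summed to 10773151 to 24763375 per mouse. The medians of these totals were 19011300 (control) and 18359704 (Mc1r LKO). Their means did not differ beyond the spread of the totals (exact permutation test of the difference in means, two-sided, p = 0.8, n = 4 per genotype). The smallest p that 4 mice against 4 allow is 0.0286. Levels are given as CPM, a count divided by the library size and brought to one scale for all mice, on library sizes normalised by the trimmed mean of M-values (TMM). The lowest count of the 10 genes was 17, for Fos in Mc1r LKO mouse 141 (95% Poisson interval 9.90 to 27.2, counting error only), and the highest was 2008. Mc1r itself had 0 counts in all 8 mice, which allows up to 3 counts, or 0.121 to 0.278 CPM on the total count, so that the deletion could not be checked. Mc1r LKO mouse 182 stood apart from the rest on the first principal component of all genes (37.6% of the variance), with a score of 59.3 against 27.8 for control mouse 181 and -28.2 to -7.03 for the other mice. For the 10 genes, results that rest on mouse 182 are therefore also given without it.

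Immediate early genes are classically switched on through sites just before their start. The 250 bases before the start site, from RefSeq on GRCm38.p6, were held for 8 of the 10 genes, all but Egr1 and Ier2. Of the 8, 5 are printed here 5′ to 3′ on the strand of the gene. Pim3 (chr15:88861944-88862193, plus strand) and Pim1 (chr17:29490535-29490784, plus strand) are shown because their fold changes had opposite signs. Fos (chr12:85473640-85473889, plus strand), Dusp1 (chr17:26508473-26508722, minus strand) and Zfp36 (chr7:28379229-28379478, minus strand) are shown as a transcription factor and both feedback regulators. Capitals mark every match, on either strand, to the motifs searched.
Pim3: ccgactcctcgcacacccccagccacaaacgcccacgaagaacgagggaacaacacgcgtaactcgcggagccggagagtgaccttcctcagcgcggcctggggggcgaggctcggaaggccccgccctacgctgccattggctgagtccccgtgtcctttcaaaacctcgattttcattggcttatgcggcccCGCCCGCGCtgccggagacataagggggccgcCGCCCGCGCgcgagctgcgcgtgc
Pim1: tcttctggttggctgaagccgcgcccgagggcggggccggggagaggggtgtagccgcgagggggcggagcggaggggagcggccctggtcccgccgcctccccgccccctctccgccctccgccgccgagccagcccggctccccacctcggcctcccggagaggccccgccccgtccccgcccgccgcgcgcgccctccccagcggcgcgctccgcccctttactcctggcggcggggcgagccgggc
Fos: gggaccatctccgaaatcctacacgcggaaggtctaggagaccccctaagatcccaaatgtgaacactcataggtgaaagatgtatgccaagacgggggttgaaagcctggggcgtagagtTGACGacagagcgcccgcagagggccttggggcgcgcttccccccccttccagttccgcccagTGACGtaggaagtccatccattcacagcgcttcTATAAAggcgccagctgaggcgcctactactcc
Dusp1: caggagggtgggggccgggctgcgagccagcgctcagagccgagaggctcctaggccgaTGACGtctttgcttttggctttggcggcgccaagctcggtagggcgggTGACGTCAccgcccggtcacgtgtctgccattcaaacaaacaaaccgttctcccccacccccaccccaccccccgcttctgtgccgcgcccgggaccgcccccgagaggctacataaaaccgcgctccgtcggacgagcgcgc
Zfp36: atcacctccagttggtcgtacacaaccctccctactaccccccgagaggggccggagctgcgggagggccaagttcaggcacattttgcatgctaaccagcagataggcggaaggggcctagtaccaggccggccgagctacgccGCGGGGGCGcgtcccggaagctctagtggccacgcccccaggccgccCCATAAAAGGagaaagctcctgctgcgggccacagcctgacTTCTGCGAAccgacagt

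The motifs searched were the full cAMP response element (CRE, TGACGTCA), its core (TGACG, which the full element contains), the AP-1 site (TGANTCA), the CArG box of serum response factor, the EGR site (GCGNGGGCG), the STAT site (TTCNNNGAA), the palindromic glucocorticoid response element and the TATA box (TATAAA). Dusp1 held the full CRE, beginning 143 bases before the start, an element found in 1.55% of the 32851 promoter windows of 27025 genes. This core was present in 4 of the 8 promoters (Fos, Junb, Atf3 and Dusp1) and in 17.8% of all windows. Pim3 held the EGR site in 2 places, 56 and 24 bases before its start, and Zfp36 held it once, 105 bases before, against 4.70% of all windows. Zfp36 also held a CArG box at 58 bases (1.47% of windows) and a STAT site at 17 bases (7.02%), and Fos a TATA box at 33 bases (12.4%). The AP-1 site (6.75% of windows) and the glucocorticoid response element (0.00913%) matched none of the 8 promoters, and the printed Pim1 window held none of the 8 motifs. A match is a description of the letters. For Dusp1, Atf3 and Zfp36 the RefSeq start lay 53656, 34706 and 1025 bases inside the gene start of the count tables, so that other start sites of these genes are not covered.

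Of the 10 genes, Pim3 alone passed the limits of an unadjusted p below 0.05 with a log2 fold change of 0.25 or more in size, and it was higher in Mc1r LKO mice. The same limits were passed by 5.31% of all genes tested, 2.64% in the direction of higher and 2.66% of lower expression, and the count for the 10 genes is to be read against that share. No gene of the 10 and none of the 13400 (0%) passed at an adjusted p (edgeR's quasi-likelihood test, Benjamini-Hochberg adjustment), while 901 genes (6.72%) had an unadjusted p below 0.05 at any fold change. The adjusted count was also 0 with limma-voom and was 1, Pim3, with DESeq2 and with edgeR's likelihood ratio test, which called 13 and 8 genes in all. The median log2 fold change of the 10 genes was 0.30, against -0.01 for all genes tested, and 9 of the 10 values were above 0 against 47.85% of all genes. Without mouse 182 that median was 0.11, and 5 of the 10 values were above 0.

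Pim3 encodes a kinase of the same family as Pim1 and lies at chr15:88862186-88865726 on the plus strand (ENSMUSG00000035828, 6 exon blocks). In control mice 154, 159, 181 and 193, Pim3 was at 46.3, 50.9, 38.7 and 34.3 CPM. In Mc1r LKO mice 141, 156, 157 and 182 it was at 88.7, 79.9, 55.4 and 71.2 CPM. Every Mc1r LKO mouse was above every control mouse, with mouse 157 closest to the control range, a separation shown by 4.16% of all genes tested (2.63% with Mc1r LKO mice higher and 1.54% with them lower). The means were 42.6 ± 7.48 CPM in control mice and 73.8 ± 14.2 CPM in Mc1r LKO mice (SD, n = 4 each). Pim3 transcripts were thus 1.74-fold higher in Mc1r LKO mice (95% interval 1.35 to 2.23), a log2 fold change of 0.80 with a standard error of 0.16 (edgeR's quasi-likelihood test, unadjusted p = 0.000609). After Benjamini-Hochberg adjustment over all genes the edgeR p was 0.734, with a range of 0.00742 to 0.820 over the other tools, normalisations, filters and depth, and of 0.499 to 0.985 with single mice left out. The exact permutation test of its log2 CPM gave p = 0.0286, the smallest that 4 mice against 4 allow. With any 1 mouse left out the log2 fold change was between 0.70 and 0.92, and it was 0.82 without mouse 182. Whole liver was sequenced, so that more RNA per cell and more cells of a type that makes it cannot be told apart.

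Pim1, an oncogene first found as an insertion site of a leukaemia virus and a textbook target of STAT3 and STAT5, lies at chr17:29490753-29496112 on the plus strand (ENSMUSG00000024014). Its level was 24.6, 37.5, 20.5 and 22.9 CPM in control mice 154, 159, 181 and 193 and 20.8, 19.1, 15.4 and 25.3 CPM in Mc1r LKO mice 141, 156, 157 and 182. The genotypes overlapped: control mouse 159 was the highest of the 8, and mouse 182 was above 3 control mice. The means were 26.4 ± 7.58 and 20.1 ± 4.11 CPM (SD, n = 4 each), a log2 fold change of -0.38 (95% interval -0.83 to 0.07, edgeR, unadjusted p = 0.0890). That value rested partly on control mouse 159: it was -0.16 without this mouse and -0.50 without mouse 182, the ends of its range with single mice left out. Control mouse 159 also had the highest summed level of 8 Kupffer cell and macrophage markers, 614 CPM against 273 CPM in the lowest control mouse, and the part of those cells in its Pim1 value was not tested. Each of these 8 markers had a value below 0 in the comparison of genotypes (median -0.41 on the log2 scale), and none passed the limits.

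The kinases thus had fold changes of opposite sign, and their ratio was computed after these values had been seen, as a description. Pim3 divided by Pim1 on the CPM scale was 1.89, 1.36, 1.88 and 1.50 in control mice 154, 159, 181 and 193, and 4.26, 4.18, 3.60 and 2.82 in Mc1r LKO mice 141, 156, 157 and 182. No value overlapped between the genotypes, with means of 1.66 ± 0.269 and 3.72 ± 0.669 (SD, n = 4 each). Pim2, the remaining gene of the family, was at 2.46 ± 0.446 and 2.67 ± 0.817 CPM, with a log2 fold change of 0.12 (edgeR, unadjusted p = 0.658). The signs of the Pim1 and Pim3 values were the same under every normalization tried.

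**Figure D1:**
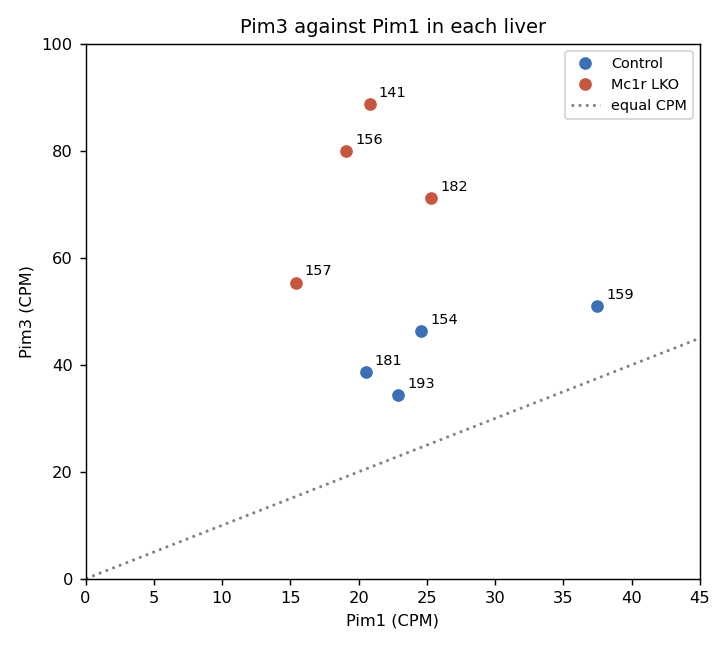
Pim3 (vertical axis, CPM) against Pim1 (horizontal axis, CPM) in each of the 8 livers, with mice numbered and control and Mc1r LKO mice in different colours; the dotted line marks equal CPM. The 4 Mc1r LKO mice lie between 55.4 and 88.7 CPM of Pim3 and the 4 control mice between 34.3 and 50.9 CPM, while the Pim1 values of the genotypes overlap.

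Fos and Jun form the AP-1 transcription factor as a heterodimer, and both are classic first responders to growth factors and stress. Fos (chr12:85473890-85477273, ENSMUSG00000021250) was the gene of lowest level among the 10. It was at 3.08, 1.77, 2.45 and 2.69 CPM in control mice 154, 159, 181 and 193 and at 1.18, 3.44, 4.48 and 3.58 CPM in Mc1r LKO mice 141, 156, 157 and 182. The Mc1r LKO mice held both the lowest value of the 8, in mouse 141, and the 3 highest. Between the genotypes Fos had a log2 fold change of 0.34 (95% interval -0.46 to 1.15, edgeR, unadjusted p = 0.363). Without mouse 141 it was 0.61 and passed the limits, without mouse 157 it was 0.13, and with counts thinned to the lowest total it was 0.12.

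Jun (chr4:95049034-95052222, minus strand, ENSMUSG00000052684) is a single exon of 3189 bases. It was at 62.8, 30.7, 35.3 and 33.5 CPM in control mice 154, 159, 181 and 193 and at 35.8, 56.7, 53.8 and 30.2 CPM in Mc1r LKO mice 141, 156, 157 and 182. The livers of control mouse 154 and Mc1r LKO mice 156 and 157 were high and the others low, and mouse 182 was the lowest of the 8. Its log2 fold change was 0.12 (95% interval -0.46 to 0.70, edgeR, unadjusted p = 0.657), and it was -0.02 without mouse 156.

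Junb, a Jun family protein that is a weaker activator than Jun and can oppose it, lies at chr8:84976910-84978718 on the minus strand (ENSMUSG00000052837). It was at 21.5, 32.1, 34.4 and 28.5 CPM in control mice 154, 159, 181 and 193 and at 31.3, 26.1, 23.4 and 87.7 CPM in Mc1r LKO mice 141, 156, 157 and 182. The mouse highest for Jun among controls, 154, was the lowest of the 8 for Junb, and mouse 182 was lowest for Jun and highest for Junb. The log2 fold change of Junb was 0.54 (95% interval -0.32 to 1.39, edgeR, unadjusted p = 0.195) with all mice and -0.11 without mouse 182. Junb divided by Jun was 0.342, 1.05, 0.976 and 0.851 in those control mice and 0.875, 0.460, 0.434 and 2.91 in those Mc1r LKO mice, with full overlap of the genotypes outside mouse 182.

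Egr1, a zinc finger transcription factor induced through serum response factor, lies on chromosome 18 from 34859823 to 34864984 (ENSMUSG00000038418). It was at 20.3, 16.8, 20.9 and 8.85 CPM in control mice 154, 159, 181 and 193 and at 9.54, 17.1, 17.1 and 41.3 CPM in Mc1r LKO mice 141, 156, 157 and 182. Mouse 182 was the highest, control mouse 193 and mouse 141 were the lowest, and the remaining 5 mice lay between 16.8 and 20.9 CPM. Egr1 had a log2 fold change of 0.36 (95% interval -0.55 to 1.27, edgeR, unadjusted p = 0.401) and -0.18 without mouse 182.

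Atf3, a repressor of the ATF/CREB family induced by amino acid shortage, DNA damage and toxins, lies at chr1:191170296-191218039 (minus strand, ENSMUSG00000026628). It was at 7.76, 4.74, 5.00 and 6.07 CPM in control mice 154, 159, 181 and 193 and at 3.25, 3.83, 9.82 and 11.4 CPM in Mc1r LKO mice 141, 156, 157 and 182. The Mc1r LKO mice lay on both sides of all control mice, with 2 below and 2 above. For Atf3 the log2 fold change was 0.27 (95% interval -0.58 to 1.13, edgeR, unadjusted p = 0.497) and -0.04 without mouse 182.

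Ier2, a nuclear protein encoded by a single exon at chr8:84661331-84662854 (minus strand, ENSMUSG00000053560), was at 13.5, 16.0, 20.4 and 13.7 CPM in control mice 154, 159, 181 and 193 and at 13.7, 13.0, 17.4 and 30.9 CPM in Mc1r LKO mice 141, 156, 157 and 182. Outside mouse 182 the genotypes covered much the same range. The log2 fold change was 0.24 (95% interval -0.35 to 0.84, edgeR, unadjusted p = 0.378) and -0.10 without mouse 182.

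**Figure D2:**
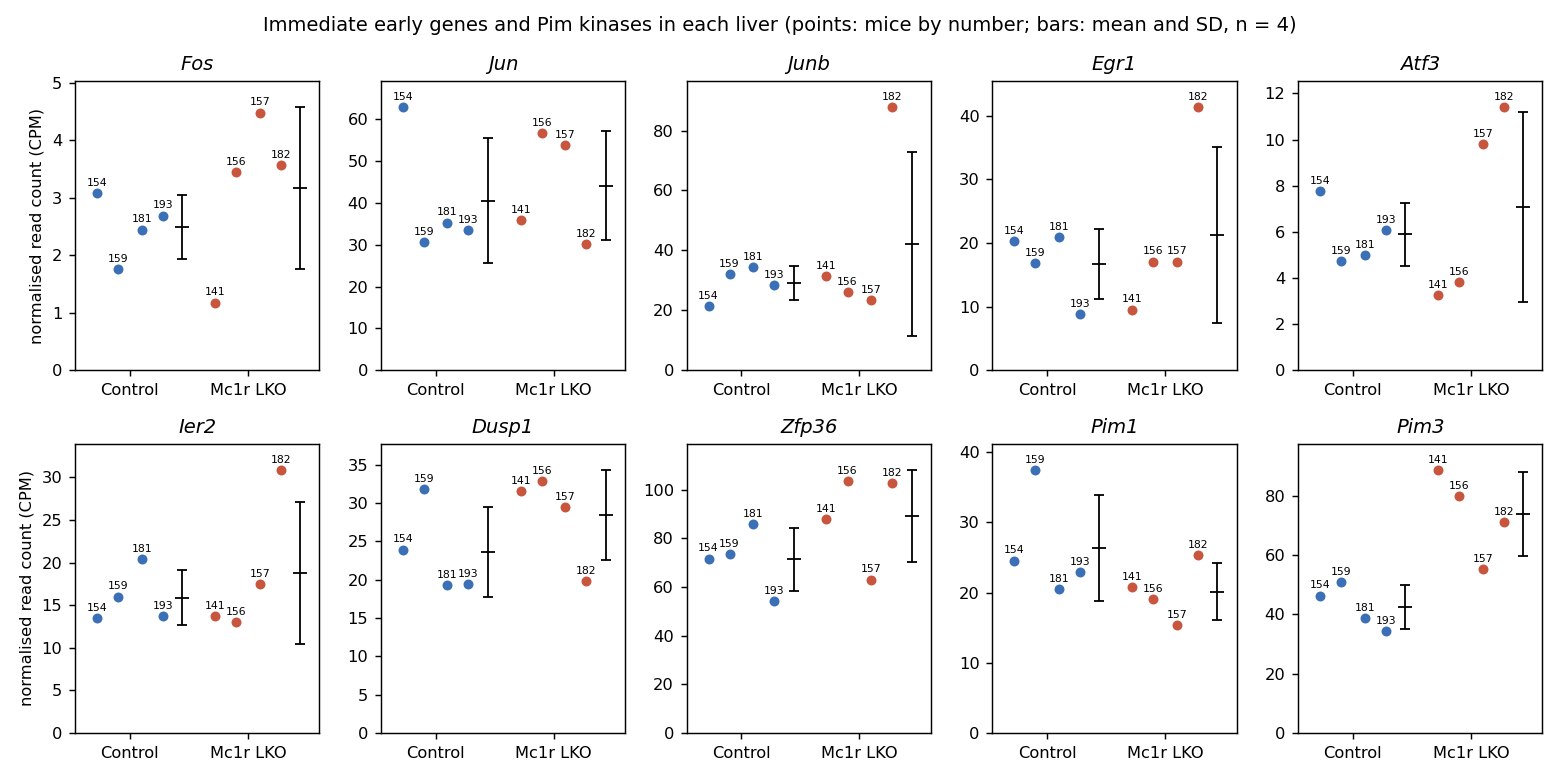
Normalised read count (vertical axes, CPM, each starting at 0) of each of the 10 genes in the 4 control and 4 Mc1r LKO livers, with points for single mice by number and bars for mean and SD. Pim3 alone shows no overlap, and mouse 182 stands above all others for Junb (87.7 CPM), Egr1 (41.3 CPM), Atf3 (11.4 CPM) and Ier2 (30.9 CPM).

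With all mice the feedback regulators varied less than the transcription factors and Ier2. The SD of log2 CPM within genotypes was 0.34 for Dusp1 and 0.31 for Zfp36, against 0.45 to 0.73. Without mouse 182 it was 0.27 for Dusp1 and 0.31 for Zfp36, beside 0.27 for Junb and 0.26 for Ier2. Dusp1, a phosphatase that inactivates the MAP kinases p38, JNK and ERK and is also a classic glucocorticoid target, lies at chr17:26505590-26562128 on the minus strand (ENSMUSG00000024190). It was at 23.9, 31.8, 19.3 and 19.4 CPM in control mice 154, 159, 181 and 193 and at 31.5, 32.9, 29.4 and 19.8 CPM in Mc1r LKO mice 141, 156, 157 and 182. In 3 of the 4 Mc1r LKO mice and in control mouse 159 Dusp1 was at 29.4 CPM or more, and in mouse 182 it was as low as in control mice 181 and 193. The log2 fold change was 0.27 (95% interval -0.16 to 0.71, edgeR, unadjusted p = 0.188). It passed the limits without control mouse 159, at 0.45, and without mouse 182, at 0.42, and was as low as 0.19 without control mouse 181.

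Zfp36 encodes tristetraprolin, which binds AU-rich elements and promotes the decay of cytokine and immediate early mRNAs. It lies at chr7:28376784-28380253 on the minus strand (ENSMUSG00000044786) and was at 71.6, 73.6, 85.8 and 54.1 CPM in control mice 154, 159, 181 and 193 and at 87.7, 103, 63.0 and 103 CPM in Mc1r LKO mice 141, 156, 157 and 182. Of the Mc1r LKO mice, 3 were above every control mouse, and mouse 157 was below all but control mouse 193. For Zfp36 the log2 fold change was 0.32 (95% interval -0.07 to 0.72, edgeR, unadjusted p = 0.0974). It passed the limits without mouse 157, at 0.47, and without control mouse 181, at 0.43, and was as low as 0.22 without control mouse 193. Zfp36l1 and Zfp36l2, paralogs of Zfp36 that act on the same elements, passed the limits in the other direction with no overlap of the genotypes. Zfp36l1 was at 147 ± 18.2 CPM in control mice and 112 ± 4.34 CPM in Mc1r LKO mice (SD, n = 4 each), a log2 fold change of -0.40 (edgeR, unadjusted p = 0.00254). Zfp36l2 was at 41.9 ± 6.31 and 34.1 ± 2.39 CPM, a log2 fold change of -0.29 (edgeR, unadjusted p = 0.0252) that lost its call without control mouse 159, without mouse 141, without mouse 157 and with counts thinned to the lowest total (-0.34 to -0.18 when 1 mouse was left out). The difference in response between Zfp36 and these paralogs was not tested.

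For 9 of the 10 genes, Pim3 being the exception, the 95% interval of the log2 fold change included 0, and their adjusted p-values (edgeR's quasi-likelihood test, Benjamini-Hochberg) lay between 0.779 and 0.959. These intervals were wide: for Junb, Egr1, Atf3 and Fos they reached a log2 fold change above 1, so that the number of mice left a change of that size possible for these genes. Depending on which mouse was left out, the number of the 10 genes passing the unadjusted limits was between 1 and 3, and Pim3 was among them in each of the 8 fits. The count was 3 without mouse 182 (Dusp1, Pim1 and Pim3) and without control mouse 181 (Zfp36, Pim1 and Pim3). It was 2 without mouse 141 (Fos and Pim3), without mouse 157 (Zfp36 and Pim3) and without control mouse 159 (Dusp1 and Pim3), and 1 without each of the remaining 3 mice.

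**Figure D3:**
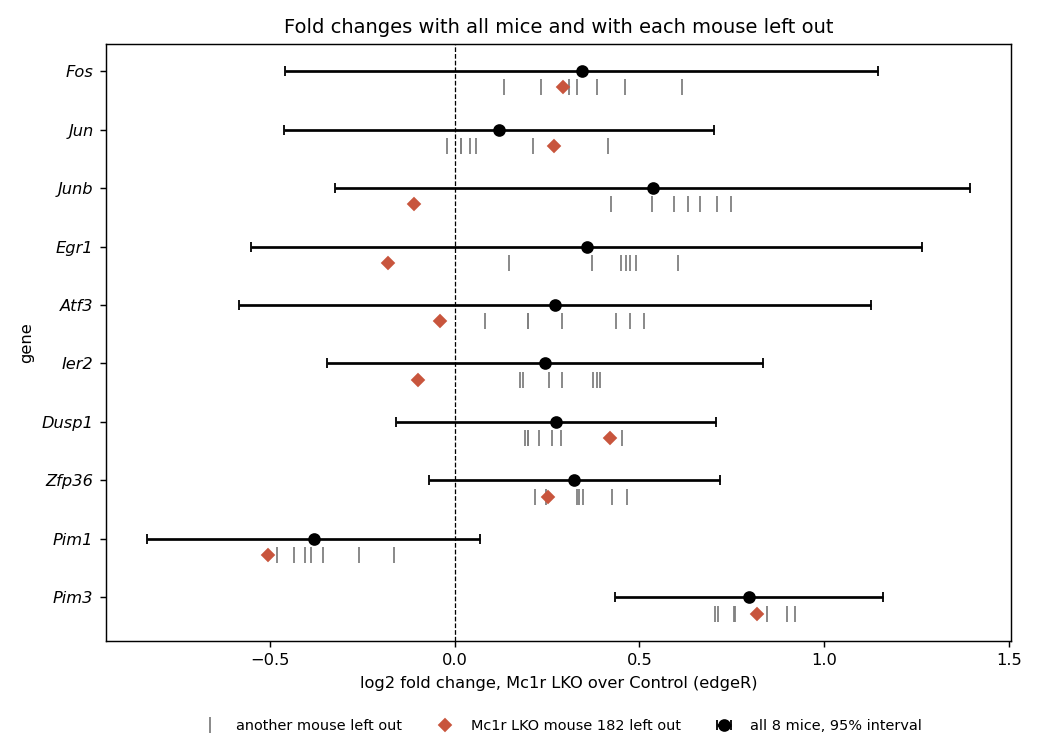
Log2 fold change of Mc1r LKO over control mice (horizontal axis, edgeR) for each of the 10 genes, with circles and 95% intervals for all 8 mice, red diamonds for the fit without mouse 182 and grey ticks for fits without another mouse. The interval of Pim3 (0.43 to 1.16) alone lies apart from 0, and without mouse 182 the values of Junb, Egr1, Atf3 and Ier2 lie between -0.18 and -0.04.

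The 10 genes varied between mice of one genotype more than most genes of their level. The SD of log2 CPM within genotypes had a median of 0.45 over the 10 genes and of 0.23 over all genes tested. It was highest for Egr1 (0.73), Atf3 (0.68), Junb (0.65) and Fos (0.62), followed by Jun (0.46), Ier2 (0.45), Dusp1 (0.34), Pim1 (0.34) and Zfp36 (0.31), and lowest for Pim3 (0.27). All 10 genes lay above the median of genes of like level, defined as those within a 2-fold range of mean CPM on either side. Among genes of like level, Egr1 stood at the 98.6th percentile, Junb at the 98.4th, Jun at the 95.9th, and Fos, the lowest of the 10 on this measure, at the 82.7th. Without mouse 182, a setting added gene by gene after the values were seen, the SD of Junb was 0.27 (percentile 87.7), that of Ier2 0.26 (percentile 78.2) and that of Egr1 0.54 (percentile 97.2), and all 10 genes still lay above the median of genes of like level. Fos (0.67), Atf3 (0.59), Egr1 and Jun (0.43) were then the most variable, and the remaining 6 lay between 0.26 and 0.33. The median over the 10 genes was 0.32 without mouse 182, the lowest value of the fits with 1 mouse left out, and 0.48 without control mouse 193, the highest.

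**Figure D4:**
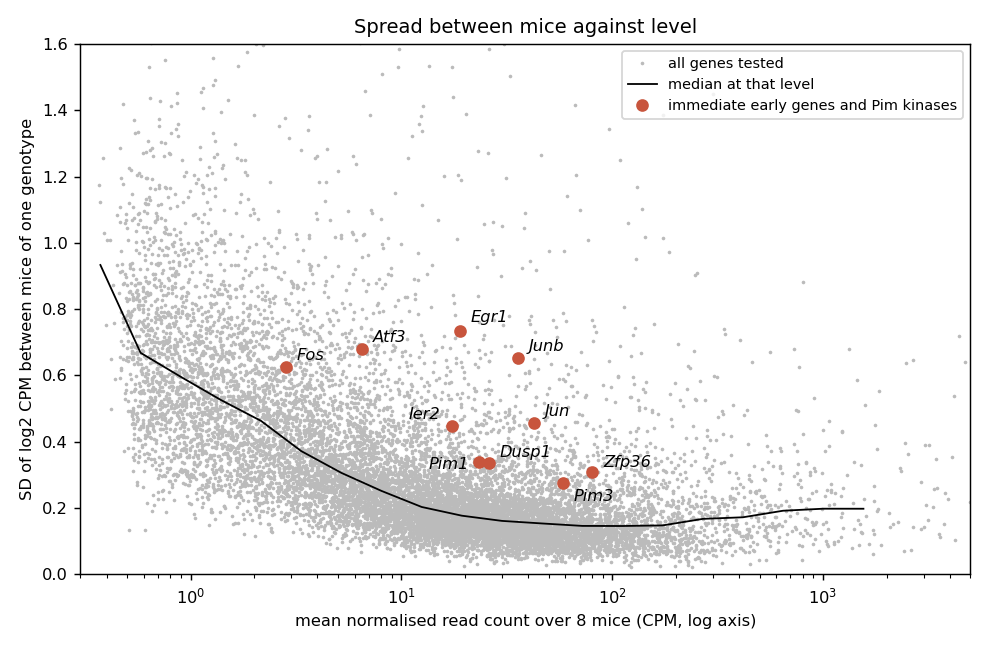
SD of log2 CPM between mice of one genotype (vertical axis, shown up to 1.6) against the mean normalised read count over 8 mice (horizontal axis, CPM, log scale) for the 10 genes (red) and all 13400 genes tested (grey), with a line for the median at each level. All 10 genes lie above the line, with Egr1 (0.73) the highest and Pim3 (0.27) the lowest of them.

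The variation was not one shared pattern in which all 10 genes rose in the same livers. Mouse 182 was the highest of the 8 for 4 genes (Junb, Egr1, Atf3 and Ier2) and had 8 of the 10 genes above the mean of all mice, with a mean difference of 0.51 on the log2 scale, yet it was the lowest for Jun. Mouse 157 was highest for Fos and lowest for Pim1, and mouse 156 was highest for Dusp1 and Zfp36 and lowest for Ier2. Mouse 141 was lowest for Fos and Atf3 and highest for Pim3, with a mean difference of -0.22. Among control mice, 193 was lowest for Egr1, Zfp36 and Pim3 (mean difference -0.32), 154 was highest for Jun and lowest for Junb, 159 was highest for Pim1, and 181 was lowest for Dusp1. The mean differences of the other mice lay between -0.08 and 0.08.

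**Figure D5:**
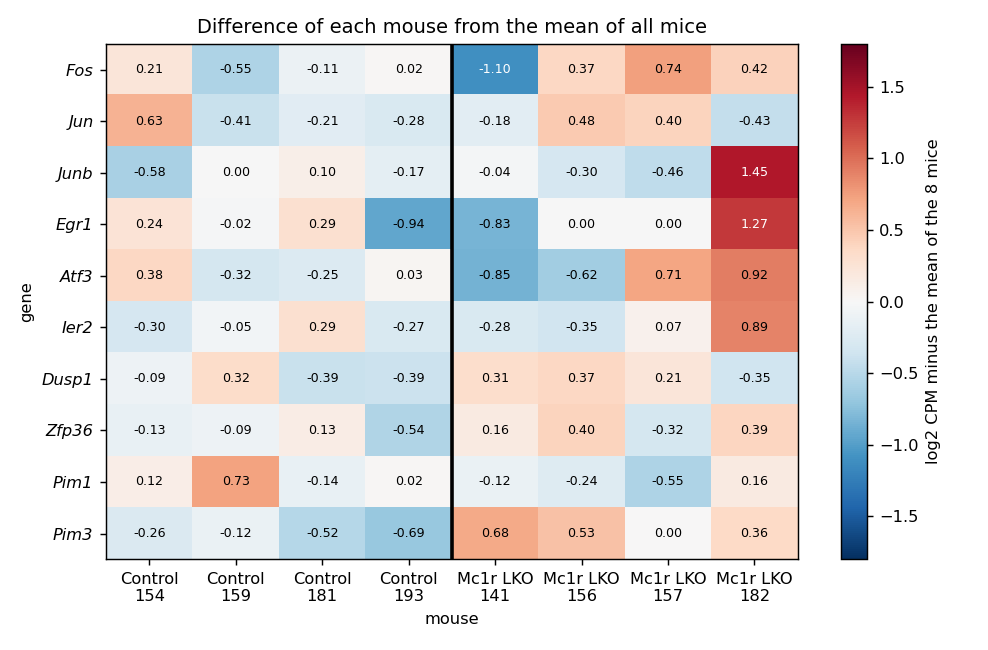
Difference of each mouse (columns, control mice left of the black line) from the mean of all 8 mice for each of the 10 genes (rows), in log2 CPM, with red for higher and blue for lower. Mouse 182 shows 1.45 for Junb and 1.27 for Egr1 but -0.43 for Jun, and Pim3 is above 0 or at 0.00 in each Mc1r LKO mouse and below 0 in each control mouse.

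Mouse 182 differed in its cell type markers too. Its summed level of 7 hepatocyte markers was 105381 CPM, the highest of the 8 mice, against 72509 to 92217 CPM in control mice. Its sums of the Kupffer cell and macrophage (191 CPM), endothelial (128 CPM), stellate cell (228 CPM) and cholangiocyte markers (29.7 CPM) were the lowest of the 8, against lowest control values of 273, 172, 252 and 59.4 CPM. Most of the cholangiocyte sum was Spp1, at 16.8 CPM in mouse 182 and 49.1 to 239 CPM in the other mice. Of the other cholangiocyte markers, Epcam (0.409 CPM) was also lowest in mouse 182. Sox9 (9.96 CPM) was the highest of the 8 there, and Krt19 and Krt7 were above most other mice. The neutrophil sum of mouse 182 (5.98 CPM) and its red blood cell sum (218 CPM) lay within or next to the control ranges of 5.99 to 12.8 and 172 to 239 CPM. The part of cell composition in its Junb, Egr1, Atf3 and Ier2 values was not tested. Between the genotypes no marker sum passed p 0.05 (two-sided exact permutation tests, p between 0.143 for lymphocyte and 0.857 for stellate cell markers, n = 4 per genotype). The ranges in Mc1r LKO mice were 80109 to 105381 CPM for hepatocyte, 191 to 430 for macrophage, 4.77 to 10.7 for neutrophil, 128 to 200 for endothelial, 228 to 436 for stellate cell, 29.7 to 255 for cholangiocyte and 199 to 267 CPM for red blood cell markers. Lymphocyte markers summed to 1.58 to 1.88 CPM in Mc1r LKO mice and 1.30 to 3.25 CPM in control mice, and their single genes were too low for the test across all genes. Of the single markers, Csf3r, 1 of 3 neutrophil genes tested, passed the unadjusted limits (log2 fold change -0.77, edgeR, unadjusted p = 0.0458) with no overlap of the genotypes. The other neutrophil genes tested, S100a8 (0.53) and S100a9 (0.39), lay in the other direction and did not pass. Csf3r was at 9.20 CPM in control mouse 159 and at 3.35 to 3.67 CPM in the other control mice. The part of Csf3r in the results was not tested. No marker was at 0 in every mouse, and 2 neutrophil markers (Retnlg and Ngp) and 1 lymphocyte marker (Ms4a1) were at 0 in some mice.

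Per length of transcript (CPM per kb of the exons counted), Pim3 and Zfp36 were the most abundant of the 10 genes, at means of 24.0 and 23.1 over the 8 mice, followed by Junb (19.7), Jun (13.3), Ier2 (11.4), Dusp1 (7.86), Pim1 (6.92), Egr1 (4.23), Atf3 (3.01) and Fos (1.20). The order at the top differed by genotype: Zfp36 led in control mice, at 20.5 against 17.5 for Pim3, and Pim3 led in Mc1r LKO mice, at 30.4 against 25.7 for Zfp36. The ranges over mice of every pair of neighbours in this order overlapped, as for Pim3 (14.1 to 36.5) and Zfp36 (15.6 to 29.8), or Ier2 (8.53 to 20.3) and Dusp1 (5.82 to 9.93). Within single livers, Atf3 was above Fos in 8 of 8 mice and Pim1 above Egr1 in 7 of 8, whereas Pim3 was above Zfp36 in 3 of 8, Dusp1 above Pim1 in 3 of 8, and the other neighbours kept the order in 5 or 6 of 8.

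Genes with the pattern most like each of the 10 over the 8 mice were taken by the Pearson correlation of log2 CPM, as a description over points that share genotype, library and, for several genes, the high value of mouse 182. The nearest gene to Pim3 was Atp5d (r = 0.99), then Iah1 and Rpl5 (0.98 each), with the same values without mouse 182. Dusp1 was nearest to Adh1 (0.99), Jun to Tpbgl (0.97), Fos to Csnk1d (0.96), Atf3 to Twf1 (0.97), Ier2 to Alg11 (0.98), Zfp36 to Tmem234 (0.96), Pim1 to Dclre1c (0.93) and Egr1 to Chka (0.98). Serpina1c and C3 were among the nearest to Junb (0.98 each), and these values were 0.88 and 0.89 without mouse 182. For the mean of the 10 genes the nearest 8 were Rpp25l (0.96), Tmem81, Zc4h2, Dirc2, Bloc1s4, Trf, Smagp and Elavl1, with lowest r of 0.93, and 0.83 to 0.91 without mouse 182. No other gene of the 10 was among the 3 nearest of any of them. All these genes were picked as the highest correlations among all genes tested, over 8 mice only. How high such picked values run for unrelated genes was not tested. Neither the values of r nor the absence of the other genes of the 10 is therefore read as shared control or its lack.

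Other immediate early genes gave a mixed picture. Of 43 listed, 38 were tested (Fosl1, Arc, Dusp2, Nr4a3 and Egr3 had too few counts), 25 were above 0, and the median log2 fold change was 0.07. In all, 5 passed the unadjusted limits, 3 higher and 2 lower, the latter being the Zfp36 paralogs given above. Nfkbia, the inhibitor of NF-kB, was at 35.2 ± 2.29 and 45.5 ± 4.33 CPM in control and Mc1r LKO mice with no overlap, a log2 fold change of 0.37 (edgeR, unadjusted p = 0.00258). Ccn2, a matricellular protein induced by TGF-beta and YAP, had a log2 fold change of 0.68 (edgeR, unadjusted p = 0.0171). Errfi1, a feedback inhibitor of the EGF receptor, had one of 0.63 (edgeR, unadjusted p = 0.0177), which missed the limit without control mouse 159 or control mouse 193 (0.53 each). Relatives of the 10 genes had log2 fold changes of 0.25 for Fosb, -0.11 for Fosl2, 0.16 for Jund and 0.00 for Egr2, and none of these passed.

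Upstream kinases and factors did not pass the limits. None of 30 tested genes for the MAP kinase cascade, serum response factor and its partners and CREB passed the limits by edgeR's quasi-likelihood test (median log2 fold change -0.02, smallest unadjusted edgeR p 0.0544, 0 with an unadjusted p below 0.05), and none passed with DESeq2, limma-voom or the likelihood ratio test. Elk4 and Map2k2, singled out after their values were seen, were higher without overlap, at log2 fold changes of 0.17 each. Without mouse 182 the count was 2, and with counts thinned to the lowest total it was 1. Of 17 genes of the JAK-STAT pathway, through which Pim kinases are induced, 16 were tested (Socs1 was not). The list held both signalling genes and the feedback genes Socs1, Socs2, Socs3 and Cish. In all, 4 of the 16 values were above 0, with a median of -0.14. Those that passed were receptors: Il6ra, the interleukin 6 receptor, rose from 23.0 ± 3.87 to 37.4 ± 10.9 CPM (log2 fold change 0.70, edgeR, unadjusted p = 0.00492, no overlap) and Prlr, the prolactin receptor, from 34.2 ± 10.9 to 55.0 ± 12.8 CPM (0.68, edgeR, unadjusted p = 0.0119). Both receptors were highest in mouse 182, Il6ra at 52.9 CPM and Prlr at 73.7 CPM. With single mice left out, the log2 fold change was 0.49 to 0.81 for Il6ra and 0.51 to 0.91 for Prlr. Stat3 (-0.03) and Socs3 (-0.23) did not pass, and without control mouse 154 the count of the list was 4. The largest value in size was that of Cish (-1.69, edgeR, unadjusted p = 0.0585), which did not pass. Cish was at 18.6 ± 23.3 CPM in control mice and 5.63 ± 3.47 CPM in Mc1r LKO mice (SD, n = 4 each).

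Of other stress-linked lists, heat shock genes had 9 of 10 values above 0 and a median of 0.27, and 1 passed, Hspe1, the mitochondrial co-chaperonin (0.31, edgeR, unadjusted p = 0.00333). Without mouse 157 that count was 2. Of 16 glucocorticoid-induced genes, a list chosen with their results known, 15 were above 0 and 11 passed, all higher, with a median of 0.79. Over all genes tested, 47.85% were above 0 and 5.31% passed. Errfi1 was in this list and in that of other immediate early genes, and its call was counted in each. The genes of this list with the smallest unadjusted p were Fkbp5 (1.09), Cebpd (0.82), Mt1 (2.41), Mt2 (2.77) and Tsc22d3 (0.93). Without mouse 182 the log2 fold changes were 1.51 for Mt1 and 1.39 for Mt2. In mouse 182, the highest for Junb, Egr1, Atf3 and Ier2, Mt1 was at 177 CPM and Tsc22d3 at 171 CPM, also the highest of the 8, whereas Fkbp5 was highest in mouse 141 (51.0 CPM), the highest for Pim3. None of the genes of these lists passed at an adjusted p with edgeR's quasi-likelihood test on the filtered genes. Of the genes named from these lists, Fkbp5 (adjusted p = 6.71e-09) and Cebpd (0.000353) passed with DESeq2, with edgeR's likelihood ratio test Fkbp5 (4.63e-08), Cebpd (0.0014) and Mt1 (0.0261), and without the filter Fkbp5 (0.00272). The relation of these genes to the 10 immediate early genes and kinases was not tested.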

How the data were processed

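Total liver RNA of 8 mice was sequenced from stranded poly(A) libraries. Per the labels and table headers, the authors trimmed reads (Trim Galore 0.6.6), aligned them (STAR 2.7.6a) to GRCm38 with Ensembl release 102 and deposited raw counts of read pairs per gene (featureCounts 2.0.1, strand option 2) for each mouse. The methods write GRCh38, and coordinates here are those of the tables. Counts by strand are not shared with antisense genes. Groups were taken from the labels, and no batch is named. Genes were filtered with filterByExpr (minimum count 10, minimum total 15), normalised by TMM and tested with edgeR 4.0.16 (glmQLFit, glmQLFTest, R 4.3.3) with Benjamini-Hochberg adjustment over 13400 genes. The script was tested on simulated data. Genes were called at an unadjusted p below 0.05, or the adjusted p, with a log2 fold change of 0.25 or more in size. Log2 CPM had a prior count of 2. Alternatives were limma 3.58.1 (voom), DESeq2 1.42.0, other normalisations, filters and dispersions, and leaving out each mouse. All 10 genes were named. From other lists, those called were named (the 5 with the smallest p where more passed), and by likeness the 3 genes nearest to each gene and the 8 nearest to their mean, of which some are not reported here. The Fosb, Fosl2, Jund, Egr2, Pim2, Stat3, Socs3 and Cish values were added after they had been seen. The same holds for the values of single neutrophil and cholangiocyte markers. The genes and lists were chosen with earlier results of these data known. No 2 mice of a genotype agreed within sampling noise (chi-square per degree of freedom at least 11.0).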

Additional observations from a re-analysis of the deposited data

Results flagged for a closer look

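Of 20 groups of 4 mice (10 genes in 2 genotypes), 2 held a mouse far from the other 3 by Dixon's criterion on CPM (critical value 0.829), where chance alone gives 1 in 20. Jun was at 62.8 CPM in control mouse 154, while the other control mice lay between 30.7 and 35.3 CPM (gap over range 0.857). Junb was at 87.7 CPM in Mc1r LKO mouse 182, while the other Mc1r LKO mice lay between 23.4 and 31.3 CPM (gap over range 0.877).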

How the results depend on the processing

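With 4 mice per genotype and counts as low as 17, the data could not separate small changes from the spread between mice. The log2 fold changes of the 10 genes kept their sign in every setting except for Junb, Egr1, Atf3 and Ier2 without mouse 182 and Jun without mouse 156. With single mice left out these lay between -0.11 and 0.75 for Junb, -0.18 and 0.61 for Egr1, -0.040 and 0.51 for Atf3, -0.10 and 0.39 for Ier2, and -0.021 and 0.42 for Jun. With single mice left out, the genes of the 10 that passed at an unadjusted p numbered 1 to 3, those without overlap 1 to 2, and the calls in the other lists were 4 to 7 for other immediate early genes, 0 to 2 for upstream kinases and factors, 2 to 4 for JAK-STAT genes, 9 to 12 for glucocorticoid-induced genes and 1 to 2 for heat shock genes. The median log2 fold change of the 10 genes was then between 0.11 and 0.44, and the median spread between 0.32 and 0.48. Scaling by library size alone, and testing genes with no filter beyond 1 count, gave 2 of the 10 (Pim1 and Pim3), and without the filter the counts were 4 for JAK-STAT and 2 for heat shock genes. Thinning to the lowest total gave 1 upstream gene. DESeq2 and the likelihood ratio test gave 1 of the 10, Pim3, at an adjusted p (DESeq2 0.00742, likelihood ratio test of edgeR 0.0270) and 13 and 8 genes in all against 0, and the unfiltered test gave 1. Scaling by library size alone made 25.26% of called genes higher, against 49.79%, with a median of all genes of -0.06. The cause of these changes was not tested. No paired analysis was made, because the mouse numbers do not tell which mice, if any, could be paired.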
